A study of Mus musculus with 65 samples.

Results

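Enzymes that carry carbon from glucose through glycolysis, the pyruvate dehydrogenase complex and the tricarboxylic acid (TCA) cycle, together with those that oxidise fatty acids, were followed in mouse spinal cord. They were selected by gene symbol, namely hexokinases, phosphofructokinases, lactate dehydrogenases, pyruvate dehydrogenase subunits, pyruvate carboxylase, transketolase, the dehydrogenases and ligases of the cycle, acyl-CoA dehydrogenases, hydroxyacyl-CoA dehydrogenases, carnitine palmitoyltransferases, long-chain acyl-CoA synthetases and acyl-CoA oxidases. Of the features of the filter 57.7%, or 4875, had 1 gene symbol, and 34 of these (26 genes) were members. Symbols of aldolases, phosphoglycerate kinases and mutases, enolases, pyruvate kinases, citrate synthase, aconitases, and enoyl-CoA hydratase and isomerases were also searched. None of these enzymes was among the members. A feature is a cDNA clone spotted on a nylon membrane, and it is named here by its gene and feature number. A single feature stood for 20 of the genes, 2 features each for 4 genes (Dlat, Idh3g, Mdh2 and Pfkm), and 3 features each for 2 genes (Dlst and Tkt).

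Total RNA of the spinal cord of 65 C57BL/6 mice was hybridised, 1 mouse to each array, on the second filter (B) of a mouse cDNA array. Mice on the ad libitum (AL) diet numbered 10 juveniles of 17 to 44 days, 10 of 6 months (169 to 194 days), 10 of 16 months (476 to 499 days) and 10 of 24 months (704 to 743 days), each with 5 males and 5 females. Mice under caloric restriction (CR), whose ration was lowered in steps to 60% of the feed, numbered 8 of 6 months (174 to 194 days, 3 males), 10 of 16 months (472 to 499 days, 5 males) and 7 of 24 months (673 to 743 days, 3 males). No juvenile was restricted. The 3 CR males of 24 months were all of 673 days, younger than every AL mouse of 24 months. In those males diet and age cannot be told apart. All values are Z scores, in which 1 unit is the standard deviation (SD) of all features on that array, so a value states where a spot stood among the other spots and not an amount of RNA. In whole tissue, fewer cells of a type and less RNA per cell cannot be told apart.

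In glycolysis glucose is phosphorylated by hexokinase, committed by phosphofructokinase and carried to pyruvate, which lactate dehydrogenase interconverts with lactate. Pyruvate enters mitochondria as acetyl-CoA through the pyruvate dehydrogenase complex, or as oxaloacetate through pyruvate carboxylase, an enzyme that in nervous tissue is known from astrocytes, and the TCA cycle then yields reducing equivalents for respiration. Fatty acids are activated to acyl-CoA, passed into mitochondria with the carnitine shuttle and shortened in repeated rounds by an acyl-CoA dehydrogenase and the mitochondrial trifunctional protein, while peroxisomes use an oxidase for the first step.

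Hadha encodes the alpha subunit of the trifunctional protein, which holds its hydratase and long-chain hydroxyacyl-CoA dehydrogenase activities, and Hadhb encodes the beta subunit with the thiolase. The start of Hadha is shown because it was the 1 member that passed the test with age, and because the gene for its partner subunit begins beside it in the opposite direction. The window runs from 250 bases before to 50 bases after the annotated start, on the minus strand of chr5:30154931-30155230 of GRCm38.p6 (RefSeq). Capitals mark the 228 bases that it shares with the window of Hadhb, which is read from the plus strand. No named feature of the filter stood for Hadhb (0 features).
Hadha: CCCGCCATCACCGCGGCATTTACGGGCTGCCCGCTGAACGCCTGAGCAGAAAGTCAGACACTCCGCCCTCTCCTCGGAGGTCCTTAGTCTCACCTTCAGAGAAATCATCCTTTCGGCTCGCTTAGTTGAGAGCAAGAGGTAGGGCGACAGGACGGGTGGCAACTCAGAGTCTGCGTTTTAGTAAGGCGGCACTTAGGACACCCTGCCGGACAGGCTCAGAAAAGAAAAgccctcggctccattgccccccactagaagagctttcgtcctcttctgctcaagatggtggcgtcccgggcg
This window had a GC content of 58.7% and 20 CpG dinucleotides. A GC box, written GGGCGG and searched on both strands like the other motifs, was present in it. Of the 25 member genes with a window 17 had this motif, Hadha among them (68.0%, against 38.2% of 27025 genes). The shorter CCAAT was found in 11 of the 25 (44.0%, against 41.1% of all genes) and AAGGTCA in 0 of the 25 (against 5.4%). TATAAA was likewise in 0 of the 25 (against 15.7%), and the NRF1 core motif was in 1, that of Dld (4.0%, against 5.2%). These matches describe letters only.

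The arrays differed in ways that the groups do not explain, and each comparison was fitted with and without an adjustment for this. The first principal component of all features held 36.0% of the variance and set apart 21 arrays (numbers 22 to 30, 34 to 43, 66 and 67) from 41 others. These are called the second and the first run here, although the labels name no batch. Arrays 31 to 33, all from mice of 6 months (2 on CR and 1 on AL), were left out before this component was taken. Their median Z values (-0.09, -0.14 and -0.09) were the lowest of all arrays. The second run held 4 of 10 juveniles, 1 of 10, 4 of 10 and 6 of 10 of the 6-, 16- and 24-month AL mice, and 0 of 8, 3 of 10 and 3 of 7 of the CR mice. Between runs 13 of the 34 members differed past an adjusted p of 0.05 (limma), 5 of them higher in the second run, against 45.8% of all features. The runs were split on these same features, so such differences are built in. These counts describe the split and do not test a run effect. Run differences of members went from -0.50 (Dlat 10484) to 0.66 (Dlst 11675). The adjusted fit has a term for the run and drops arrays 31 to 33, and its values are called run-adjusted. A change from the fit to all arrays can thus come from the run term or from the dropped arrays.

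Few members passed a test of age, diet or sex. Across the 14 comparisons, 1 member passed an adjusted p of 0.05, Hadha between 6 and 24 months in AL mice, and after run adjustment it was again Hadha that passed, in 3 comparisons. The median residual SD of a member feature was 0.143 Z among mice of 1 group and 0.101 after run adjustment, close to that of all features (0.149 and 0.106). Group means of the 34 features differed from the feature's own mean over the 7 groups of stage and diet by -0.305 to 0.199. The widest of these shifts belonged to Hadha at 6 months on AL (-0.305), followed by Dlat 10484 at 24 months on AL (-0.23).

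**Figure D1:**
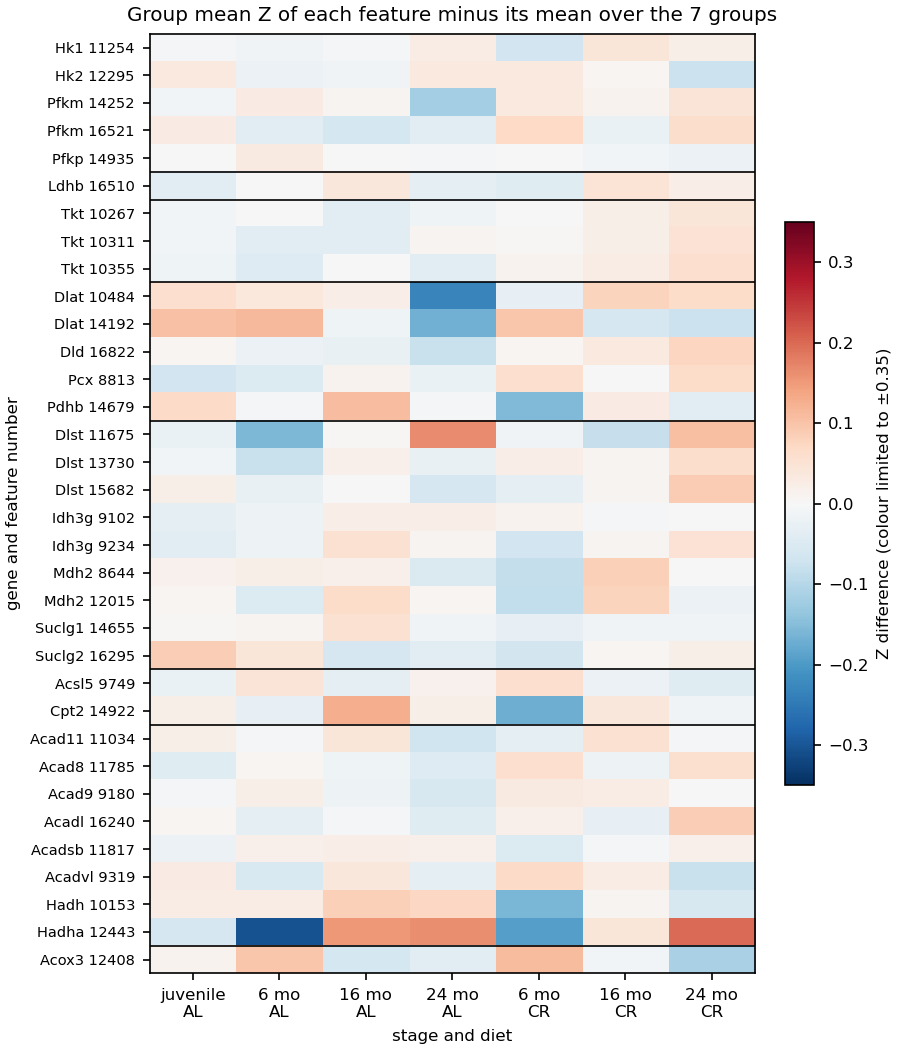
Group mean Z of each of the 34 member features (rows, ordered by role from glycolysis at the top to peroxisomal oxidation at the bottom) in the 7 groups of stage and diet (columns), after subtraction of the feature's own mean over the 7 groups. Hadha has the strongest colours, from -0.305 at 6 months on AL to 0.199 at 24 months on CR, and most other rows are pale.

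Hadha (feature 12443) rose with adult age. Juvenile mice had Z values from -0.44 to -0.18 (median -0.28), 6-month AL mice from -1.95 to -0.20 (median -0.38), 16-month AL mice from -0.22 to 0.20 (median -0.12) and 24-month AL mice from -0.22 to 0.10 (median -0.07). In CR mice the values went from -0.76 to -0.23 (median -0.40) at 6 months, from -0.32 to -0.03 (median -0.18) at 16 months and from -0.13 to 0.04 (median -0.01) at 24 months. Thus all 7 old CR mice stood above all 8 young ones, and the old AL mice overlapped the 6-month AL mice only between -0.22 and -0.20. The lowest value of all, -1.95, came from array 33, which is one of the 3 arrays set apart.

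Between 6 and 24 months in AL mice the mean of Hadha went from -0.54 to -0.08, a difference of 0.47 ± 0.10 (SE, adjusted p = 0.0414, limma), with 10 of 10 old mice above the 6-month mean. It was 1 of 6 features called in this comparison (0.071% of all features), and 3 members had an unadjusted p under 0.05 (12.8% of all features). After run adjustment, which also drops array 33, the difference was smaller and so was its error, at 0.30 ± 0.05 (adjusted p = 0.000256). Between runs Hadha differed by 0.02 (adjusted p = 0.697, limma), and leaving out array 33 alone gave an age difference of 0.30. Within the first run alone the age difference was 0.32, and within the second run, which holds a single 6-month AL mouse, 0.26. The call without adjustment depended on single mice. Each of the 20 mice was left out in turn, which left the sign as it was, at 0.30 to 0.52, but the difference passed in 8 of the 20 fits (adjusted p = 0.000839 without array 33) and did not pass in the other 12 (adjusted p from 0.0608 to 0.153, limma). One of these 12 was the fit without array 27, at 0.47 (adjusted p = 0.0747). Array 27 was grouped as a 24-month AL male by its title and characteristics, while its description label repeats that of array 1, a juvenile male, so its group is in doubt. The difference did not pass with quantile normalization either, at 0.49 (adjusted p = 0.0989).

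In AL mice a difference of the same size was already present at 16 months. From 6 to 16 months the run-adjusted difference was 0.29 ± 0.05 (adjusted p = 0.000556, limma), 0.32 within the first run and 0.23 within the second, while without adjustment it was 0.46 ± 0.10 with an adjusted p of 0.0827. Features called in that comparison after run adjustment were 7 (0.0829%). In CR mice the difference from 6 to 24 months was 0.40 ± 0.12 (adjusted p = 0.496), and after run adjustment it was 0.31 ± 0.06 (adjusted p = 0.0130, limma) where 4 features were called (0.0473%). Within the first run, the only run with CR mice of 6 months, it was 0.27. The CR step of Hadha lay partly before and partly after 16 months, with run-adjusted differences of 0.16 ± 0.05 (adjusted p = 0.999) and 0.15 ± 0.05 (adjusted p = 0.182), neither of which passed.

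Diets were not shown to differ in this step. The CR minus AL difference between the steps from 6 to 24 months was -0.06 ± 0.16 (adjusted p = 0.999, limma), and 0.02 ± 0.07 after run adjustment. The sexes gave a difference of steps, male minus female in AL mice, of 0.08 ± 0.20, which turned to -0.25 ± 0.09 after run adjustment (unadjusted p = 0.0100, adjusted p = 1.00, limma). In females the Hadha values at 6 months on AL went from -0.67 to -0.29 (5 mice) and at 24 months from -0.10 to 0.10 (5 mice). In males they went from -1.95 to -0.20 at 6 months and from -0.22 to -0.05 at 24 months (5 mice each).

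**Figure D2:**
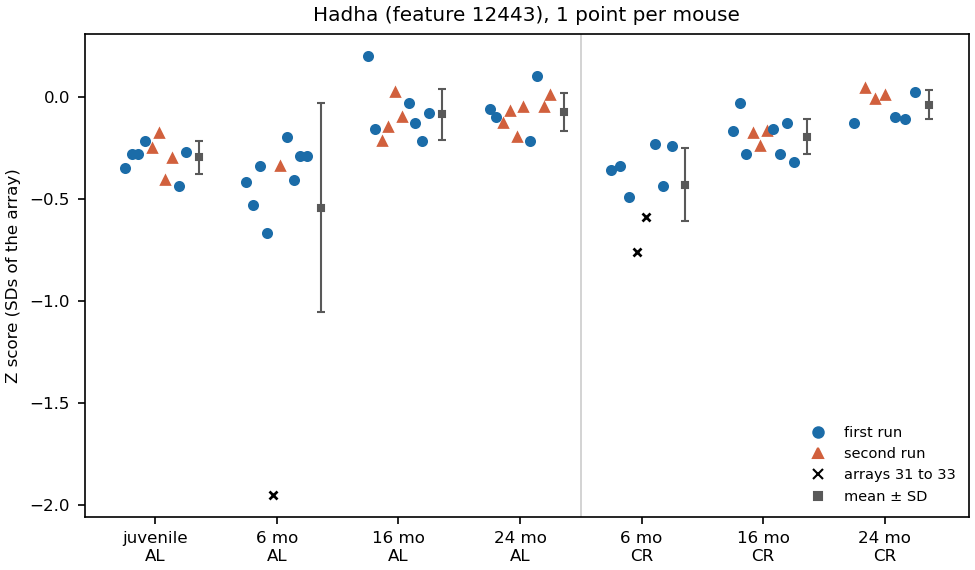
Z score of Hadha (feature 12443) in each of the 65 mice by stage and diet, with circles for the first run, triangles for the second run and crosses for arrays 31 to 33; grey squares and bars are the group mean and SD. The 16- and 24-month groups sit above the 6-month groups on both diets, and the cross at -1.95 sets the wide bar of the 6-month AL group.

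Features that varied most like Hadha among mice of the same group and run were those of cathepsin D (Ctsd 12575 and 12531, residual r = 0.638 and 0.615 over 62 arrays), Ganab 12509 (r = 0.593) and Tbc1d8 11211 (r = 0.579). These r values share arrays and feature positions and are given as a description. All 4 features share with Hadha a place in the numbering: when feature numbers are laid in rows of 22, each falls at the same position, number 13, along with 384 features in all. The 6 features called between 6 and 24 months in AL mice were all at that position. Run-adjusted calls had the same limit. Position 13 held 6 of 6 in that comparison, 6 of 7 from 6 to 16 months on AL, and 4 of 4 from 6 to 24 months on CR. From 6 to 24 months on AL the median difference of the 384 features was 0.05, and 0.0022 after run adjustment. Centred on the 22 positions, Hadha had a difference of 0.38 (adjusted p = 0.177, limma), and centred and run-adjusted together it had 0.29 (adjusted p = 0.000207). The layout of the filter is not given in the sources used here, and the part of position in this result was not tested beyond these values. Pcx 8813 and Acadvl 9319 are at the same position and had differences of 0.03 and 0.02.

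Some features of genes taken here as microglial markers also passed. Of a list of 14 such genes 5 had named features (C1qa, C1qb, C1qc, Ctsd and Fcer1g, with 6 features), and 3 features passed as higher from 6 to 24 months in AL mice, the Ctsd features and C1qa 13983, all at position 13. After run adjustment the Ctsd features passed, and C1qa came to 0.24 (adjusted p = 0.0609, limma). C1qb, C1qc and Fcer1g, at other positions, differed by 0.17, 0.07 and -0.03 and did not pass. The summed Z of the list ran from -2.73 to 1.15 (median 0.81) at 6 months and from 1.45 to 2.21 (median 1.81) at 24 months on AL, and from -0.54 to 1.04 (median 0.60) and from 0.88 to 2.32 (median 1.58) on CR. The 3 features that passed are among the 6 summed, so the sum repeats those calls in part. Whether the listed genes stand for microglia in this tissue, or have a part in the Hadha values, was not tested. Of other cell types, 5 of 11 astrocyte genes, 3 of 14 neuron genes, 1 of 12 oligodendrocyte genes (Gsn), 1 of 14 muscle genes (Mylpf), 1 of 6 Schwann cell genes, 4 of 8 blood genes, 6 of 9 meningeal matrix genes, 2 of 9 vascular genes and 0 of 9 adipose genes had features, and none of those features passed in this comparison. Z scores have no zero, so the absence of a cell type cannot be read from them.

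The enzymes that bring pyruvate into the cycle held the members with the next smallest p values. Dlat encodes the acetyltransferase core of the pyruvate dehydrogenase complex. On feature 14192 the Z values of 6-month AL mice went from -0.93 to -0.11 (median -0.37), of 16-month AL mice from -0.64 to -0.41 (median -0.56) and of 24-month AL mice from -0.99 to -0.47 (median -0.70). Juveniles spanned -0.64 to -0.19 (median -0.39), and CR mice -0.57 to -0.30 (median -0.44), -0.75 to -0.38 (median -0.59) and -0.76 to -0.41 (median -0.63) at 6, 16 and 24 months. The old groups thus lay low but overlapped the young ones on both diets.

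Between 6 and 24 months in AL mice the difference of Dlat 14192 was -0.28 ± 0.07 (unadjusted p = 0.000225, adjusted p = 0.193, limma), with 0 of 10 old mice above the 6-month mean. Run adjustment brought it to -0.15 ± 0.06 (adjusted p = 0.997), in a fit where 3 members had an unadjusted p under 0.05 (3.88% of all features). Within the first run it was -0.18 and within the second, with 1 young mouse, 0.14. Dlat 10484 differed in the same direction, by -0.27 ± 0.17 and by -0.17 ± 0.08 after run adjustment (adjusted p = 0.997). The second run read lower for both features, with means of -1.02 against -0.49 in the first run for 10484 and of -0.70 against -0.44 for 14192, and 6 of 10 old against 1 of 10 young AL mice were in it. Neither feature passed in any of the 14 comparisons of the fit to all arrays.

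**Figure D3:**
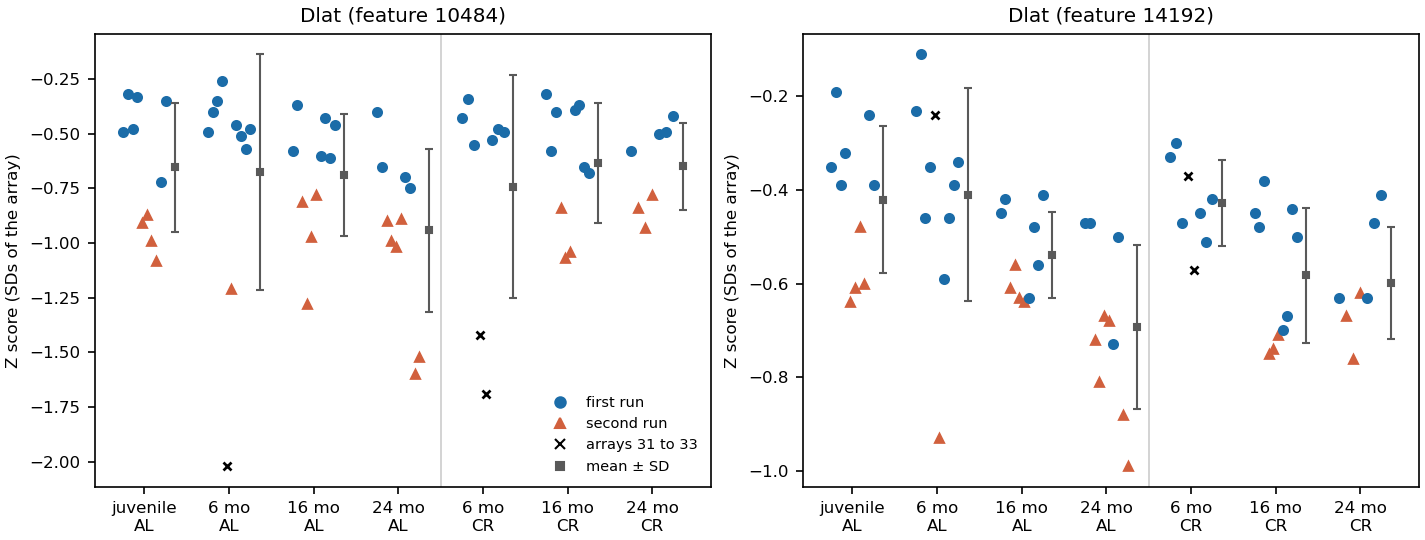
Z scores of the 2 Dlat features in each of the 65 mice by stage and diet, with circles for the first run, triangles for the second run, crosses for arrays 31 to 33 and grey squares with bars for the group mean and SD. Triangles lie below circles in most groups, and the 24-month AL group, with 6 triangles among 10 mice, has the lowest mean on both features (-0.94 and -0.69).

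The other pyruvate enzymes did not pass from 6 to 24 months in AL mice. Pdhb 14679, the beta subunit of the dehydrogenase that starts the complex, differed by 0.0030 ± 0.12, Dld 16822, the lipoamide dehydrogenase that the complex shares with the 2-oxoglutarate complex, by -0.06 ± 0.08, and Pcx 8813, pyruvate carboxylase, by 0.03 ± 0.05. After run adjustment these were -0.11 ± 0.07, -0.03 ± 0.04 and 0.03 ± 0.05 in the same order. From 16 to 24 months all 5 features of this role had negative signs in AL mice, with a median of -0.11 before and after run adjustment, and none passed. Signs were positive in that comparison for 10 of 34 members and 46.6% of all features, and negative for 7 of 9 TCA cycle features. The smallest p values of that comparison were those of Dlat 14192 (-0.15 ± 0.07, unadjusted p = 0.0365), Dlat 10484 (-0.25 ± 0.17), Suclg1 14655 (-0.07 ± 0.04), Pfkm 14252 (-0.13 ± 0.09) and Acad11 11034 (-0.11 ± 0.08). At an unadjusted p under 0.05 the share of all features was 1.99%, and 0 features were called.

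Among TCA cycle enzymes no feature passed at any age with all arrays weighted alike, before or after run adjustment. Dlst encodes the succinyltransferase of the 2-oxoglutarate dehydrogenase complex, and its 3 features behaved unalike. Dlst 11675 differed by 0.32 ± 0.16 between 6 and 24 months in AL mice (unadjusted p = 0.0461, adjusted p = 0.385, limma), but by 0.04 ± 0.06 after run adjustment, and it passed when arrays were weighted by quality, where 17.2% of all features did. Its values did not overlap between the runs, from -0.26 to 0.42 in the first and from 0.62 to 0.88 in the second. Dlst 13730 and Dlst 15682 differed by 0.05 ± 0.06 and -0.03 ± 0.05, and the sign of both turned with run adjustment (-0.02 ± 0.06 and 0.03 ± 0.04).

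The remaining features of the cycle had small differences between 6 and 24 months on AL. Idh3g, a subunit of the NAD-dependent isocitrate dehydrogenase, gave 0.04 ± 0.04 on feature 9102 and 0.03 ± 0.05 on 9234. Mdh2, the mitochondrial malate dehydrogenase, gave -0.07 ± 0.07 on 8644 and 0.05 ± 0.06 on 12015. The succinyl-CoA ligase subunits Suclg1 14655 and Suclg2 16295, the latter being the GTP-specific beta subunit, gave -0.02 ± 0.04 and -0.08 ± 0.05. Run-adjusted, the 9 features of the cycle lay between -0.05 and 0.04. In CR mice all 9 features of the cycle had positive signs over the same span, with a median of 0.07 (highest 0.11). After run adjustment 5 were positive and 4 negative, with a median of 0.0051. Of the 34 members 25 had positive signs over this span on CR, against 57.9% of all features. With run adjustment 18 had (50.6% of all features).

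No glycolytic member passed with age when all arrays were weighted alike. Between 6 and 24 months the differences were 0.04 ± 0.04 for Hk1 11254, the hexokinase predominant in brain, 0.06 ± 0.05 for Hk2 12295, the form known from muscle, -0.15 ± 0.09 and 0.0030 ± 0.08 for Pfkm 14252 and 16521, the muscle-type phosphofructokinase, and -0.03 ± 0.09 for Pfkp 14935, the platelet type. Ldhb 16510, the lactate dehydrogenase subunit that predominates in heart, differed by -0.03 ± 0.07. Transketolase, which ties the pentose phosphate pathway to glycolysis, gave -0.02 ± 0.04, 0.05 ± 0.05 and 0.0090 ± 0.06 on Tkt 10267, 10311 and 10355. After run adjustment the hexokinase and phosphofructokinase features lay between -0.08 and 0.04, Ldhb was at -0.07 and the Tkt features lay between -0.02 and 0.01. None of these 9 features passed in any of the 14 comparisons, before or after run adjustment, while with arrays weighted by quality Pfkm 14252 passed as lower from 6 to 24 months on AL.

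Apart from Hadha, members that act on fatty acids or on other acyl-CoA did not pass either. Acsl5 9749, an acyl-CoA synthetase, and Cpt2 14922, the inner membrane carnitine palmitoyltransferase, differed by -0.03 ± 0.06 and 0.05 ± 0.11 between 6 and 24 months on AL. For the acyl-CoA dehydrogenases the differences were 0.02 ± 0.06 (Acadvl 9319, very long chains), -0.01 ± 0.06 (Acadl 16240, long chains), -0.0010 ± 0.05 (Acadsb 11817, short branched chains), -0.05 ± 0.04 (Acad8 11785, isobutyryl-CoA), -0.08 ± 0.08 (Acad9 9180, also an assembly factor of respiratory complex I) and -0.06 ± 0.08 (Acad11 11034). Hadh 10153, the short-chain hydroxyacyl-CoA dehydrogenase of the matrix, differed by 0.05 ± 0.10 (-0.08 ± 0.07 run-adjusted). Run adjustment turned the sign of Acsl5 (0.03 ± 0.05), Cpt2 (-0.08 ± 0.05), Acadl (0.02 ± 0.04), Acad9 (0.0010 ± 0.08) and Acad11 (0.0086 ± 0.05). Over the 8 mitochondrial oxidation features, Acadsb and Acad8 among them, the median was -0.0060, against -0.0020 over all features, and 0.0048 after run adjustment.

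Peroxisomal Acox3 12408, an acyl-CoA oxidase for branched chains, had Z values from -0.36 to 0.63 (median -0.28) at 6 months, from -0.46 to -0.23 (median -0.37) at 16 months and from -0.50 to -0.13 (median -0.34) at 24 months on AL, and from -0.57 to -0.07 (median -0.25) in juveniles. On CR it went from -0.43 to 0.19 (median -0.20), from -0.44 to -0.19 (median -0.32) and from -0.52 to -0.35 (median -0.38). Its highest value, 0.63, was again from array 33. The old CR mice were the lowest group yet overlapped the young ones. Between 6 and 24 months the difference was -0.22 ± 0.08 on CR (unadjusted p = 0.0100, adjusted p = 0.496, limma), or -0.13 ± 0.06 after run adjustment, and -0.13 ± 0.07 on AL, or -0.01 ± 0.05 after run adjustment.

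**Figure D4:**
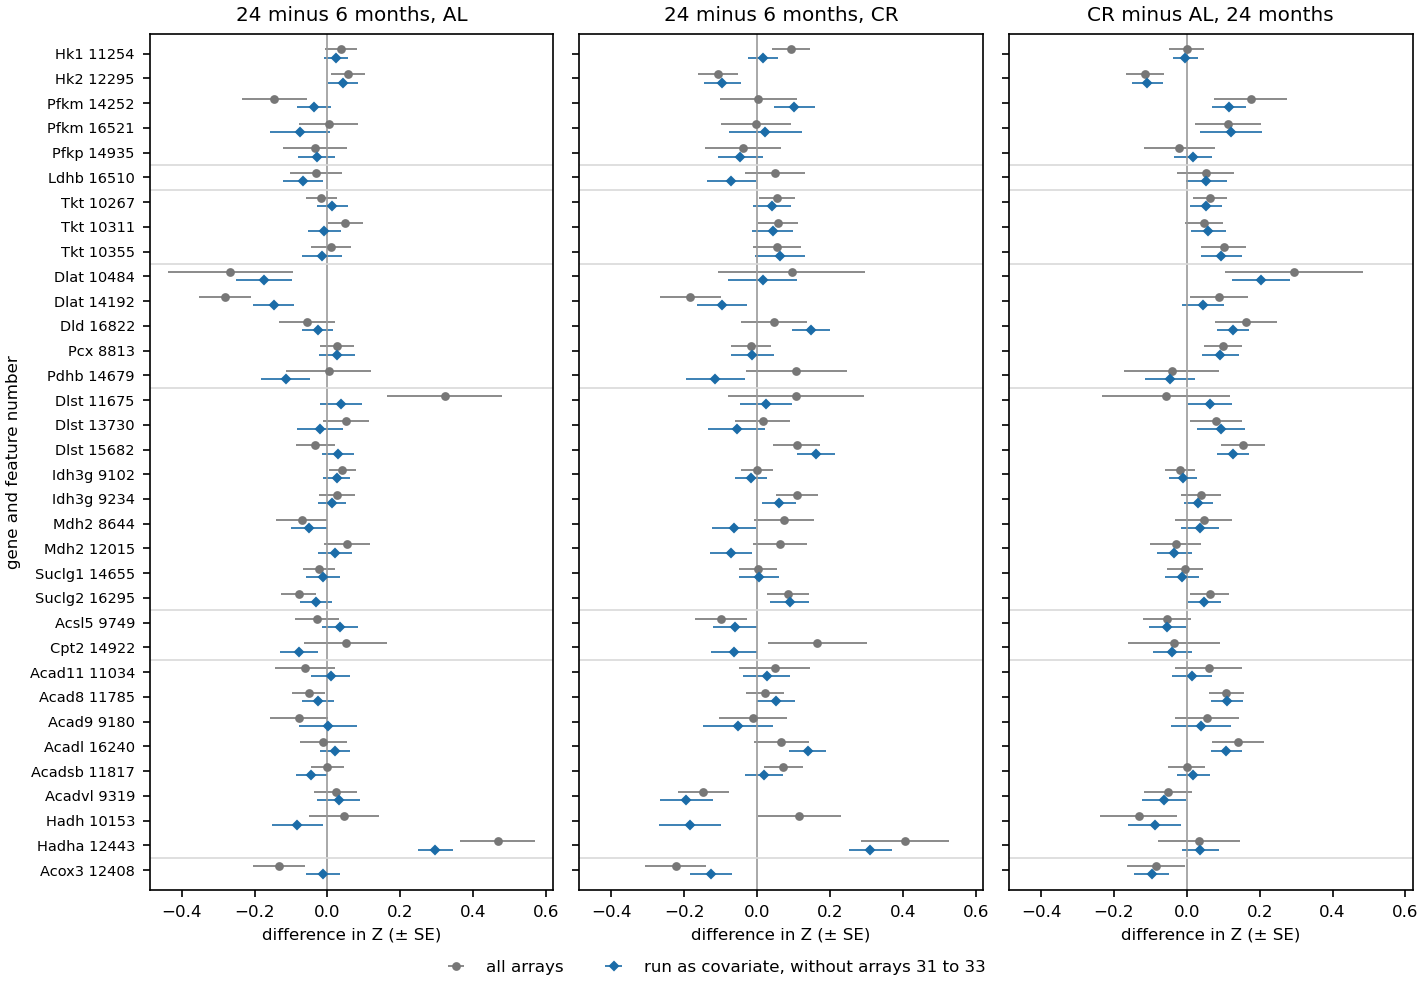
Differences in Z between 24 and 6 months on AL (left), between 24 and 6 months on CR (middle) and between CR and AL at 24 months (right) for each of the 34 member features, with bars of 1 SE; grey circles are from all 65 arrays and blue diamonds are run-adjusted without arrays 31 to 33. Hadha stands out in both age panels (0.47 and 0.40, or 0.30 and 0.31 run-adjusted), and Dlat 14192 and Dlst 11675 move toward 0 with run adjustment on AL.

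For each remaining step of age, 0 members were called by limma and the 5 smallest p values are given. From juvenile to 6 months on AL (11 features called, 0.13%, or 20 run-adjusted, 0.237%) they belonged to Hadha (-0.25 ± 0.10, unadjusted p = 0.0194), Acadvl (-0.08 ± 0.06), Acox3 (0.09 ± 0.07), Hk2 (-0.06 ± 0.05) and Acsl5 (0.07 ± 0.06), and Hadha came to -0.08 ± 0.05 and Acox3 to -0.02 ± 0.05 after run adjustment. This interval gave 1 member under an unadjusted p of 0.05 (2.56% of all features) and 0 after run adjustment (4.04%). From 6 to 16 months on AL (2 called, 0.0237%), beside Hadha, they were Acox3 (-0.16 ± 0.07), Suclg2 (-0.10 ± 0.05), Dlat 14192 (-0.13 ± 0.07) and Mdh2 12015 (0.11 ± 0.06), with 3 members under an unadjusted p of 0.05 against 13.3% of all features. After run adjustment Acox3 came to -0.05 ± 0.05, Suclg2 to -0.07 ± 0.04, Dlat 14192 to -0.04 ± 0.05 and Mdh2 12015 to 0.07 ± 0.04, and 1 member, Hadha, was left under that limit (6.68% of all features). Without array 33 alone Acox3 was at -0.07.

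In CR mice from 6 to 16 months 5 members had an unadjusted p under 0.05, against 6.9% of all features, and 0 features were called. These were Mdh2 12015 (0.16 ± 0.07), Hk1 11254 (0.11 ± 0.05), Hadha (0.25 ± 0.11), Mdh2 8644 (0.16 ± 0.08) and Dlat 14192 (-0.16 ± 0.08). After run adjustment the differences of the Mdh2 features were 0.03 ± 0.05 and 0.02 ± 0.06 and that of Hk1 was 0.03 ± 0.04, and 1 member, Hadha, was left under that limit (3.47% of all features).

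From 16 to 24 months on CR 0 members had an unadjusted p under 0.05 (5.16% of all features), the smallest being Acadl 16240 (0.13 ± 0.07), Hk2 (-0.09 ± 0.05), Acad8 (0.08 ± 0.05), Acadvl (-0.11 ± 0.07) and Mdh2 12015 (-0.10 ± 0.07). Run adjustment gave 6 members under that limit, Acadl with the smallest (0.15 ± 0.04, unadjusted p = 0.0011, adjusted p = 0.172), where 17.2% of all features were. From 6 to 24 months on CR (2 features called, 0.0237%), after Hadha and Acox3, came Dlat 14192 (-0.18 ± 0.08), Acadvl (-0.15 ± 0.07, or -0.19 ± 0.07 run-adjusted) and Hk2 (-0.11 ± 0.05). Members under an unadjusted p of 0.05 numbered 4 (8.71% of all features) and 7 after run adjustment (17.2%). The median over the 34 members was 0.05, against 0.02 over all features, and 0.0099 after run adjustment.

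No member passed in a comparison of the diets. At 6 months (2 features called, 0.0237%, or 1 run-adjusted, 0.0118%) Pcx 8813 had the smallest p, with values from -0.33 to 0.07 (median -0.04) on AL and from -0.12 to 0.46 (median -0.03) on CR, which overlapped. Its difference, CR minus AL, was 0.14 ± 0.05 (unadjusted p = 0.0076, adjusted p = 0.576, limma) and 0.13 ± 0.06 after run adjustment. Leaving out single mice gave 0.08 to 0.20, both ends without a CR male (replicates 1 and 3). In males the mean was -0.04 on AL and 0.20 on CR (3 mice), and in females -0.09 and -0.06. At the other ages its values went from -0.19 to 0.09 (median 0.01) and from -0.18 to 0.04 (median -0.02) on AL at 16 and 24 months, from -0.14 to 0.11 (median -0.01) and from -0.08 to 0.37 (median 0) on CR, and from -0.24 to 0.05 (median -0.08) in juveniles. The differences by diet were -0.01 ± 0.05 at 16 months and 0.10 ± 0.05 at 24 months. Next at 6 months were Hadh (-0.20 ± 0.10, or 0.01 ± 0.08 run-adjusted), Suclg2 (-0.10 ± 0.05), Acadvl (0.12 ± 0.06) and Dlst 13730 (0.12 ± 0.07), with 1 member under an unadjusted p of 0.05 against 7.77% of all features.

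At 16 months the smallest p values were those of Suclg1 (-0.07 ± 0.04), Suclg2 (0.07 ± 0.05), Tkt 10267 (0.06 ± 0.04), Tkt 10311 (0.06 ± 0.05) and Hadha (-0.11 ± 0.10), 0 members had an unadjusted p under 0.05 (0.746% of all features), and 0 features were called. Hadha after run adjustment was -0.11 ± 0.05 (unadjusted p = 0.0208, adjusted p = 0.999, limma).

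At 24 months CR mice were higher than AL mice in sign for 20 of 34 members (50.6% of all features), with a median of 0.05 against 0.0016 over all features. The smallest p values were those of Dlst 15682 (0.15 ± 0.06, unadjusted p = 0.0138), Hk2 (-0.12 ± 0.05), Acad8 (0.11 ± 0.05), Acadl (0.14 ± 0.07) and Dld (0.16 ± 0.08), at adjusted p of 0.634. In this comparison 3 members had an unadjusted p under 0.05 (7.42% of all features), and 7 after run adjustment (18.3%), and 0 features were called either way. After run adjustment Dld had 0.13 ± 0.04 and Dlst 15682 0.13 ± 0.04, both at an adjusted p of 0.129. Dlat 10484, low in old AL mice, had values from -1.60 to -0.40 (median -0.90) in those and from -0.93 to -0.42 (median -0.58) in old CR mice, with a difference of 0.29 ± 0.19, or 0.20 ± 0.08 after run adjustment (adjusted p = 0.165).

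Over the 3 adult ages together (2 features called, 0.0237%, or 1 run-adjusted, 0.0118%) the smallest p values were those of Pcx (0.08 ± 0.03, unadjusted p = 0.0110, adjusted p = 0.434, limma), Hadh (-0.14 ± 0.06), Dld (0.09 ± 0.05), Pfkm 16521 (0.09 ± 0.05) and Tkt 10355 (0.06 ± 0.03). Hadh came to -0.04 ± 0.04 after run adjustment and Pcx to 0.07 ± 0.03. Members under an unadjusted p of 0.05 were 2 of 34 (10.6% of all features). For the diet difference of the step from 6 to 24 months (0 features called), the smallest p values were those of Hk2 (-0.16 ± 0.07, unadjusted p = 0.0267, adjusted p = 0.999), Suclg2 (0.16 ± 0.07), Acadvl (-0.17 ± 0.09), Dlst 15682 (0.14 ± 0.08) and Dlat 10484 (0.36 ± 0.26). Hk2, with 0.06 ± 0.05 on AL and -0.11 ± 0.05 on CR over that span, thus went opposite ways in sign, without passing. Under an unadjusted p of 0.05 were 2 members (1.56% of all features), or 3 after run adjustment (9.09%).

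Sex gave no call either (0 features of the filter). Pcx had the smallest p of any member, with values from -0.20 to 0.46 (median 0.01) in 26 adult males and from -0.33 to 0.11 (median -0.03) in 29 adult females. The sexes overlapped widely. The difference, male minus female, was 0.10 ± 0.03 (unadjusted p = 0.0011, adjusted p = 0.984, limma), and again 0.10 ± 0.03 after run adjustment. On CR the male and female Pcx means were 0.20 and -0.06 at 6 months and 0.14 and -0.03 at 24 months, with 3 males each. At 16 months on CR they were 0.0040 and -0.04. On AL they were -0.04 and -0.09, 0.03 and -0.04, and -0.04 and -0.05 at 6, 16 and 24 months. Next by p were Cpt2 (-0.13 ± 0.07), Hk2 (-0.05 ± 0.03), Pdhb (-0.12 ± 0.07) and Hadh (-0.09 ± 0.06), with 1 member under an unadjusted p of 0.05 (3.44% of all features). For the sex difference of the step from 6 to 24 months on AL, 0 members had an unadjusted p under 0.05 (1.14% of all features), the smallest being Suclg1 (-0.15 ± 0.09), Acsl5 (-0.18 ± 0.12), Acad8 (-0.12 ± 0.09), Cpt2 (0.26 ± 0.23) and Pfkp (-0.20 ± 0.17). Cpt2 turned to -0.01 ± 0.10 after run adjustment.

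Features of the same gene were compared to see how well a feature spoke for its gene. Residuals of the 3 Tkt features, after group and run, correlated at r = 0.854 to 0.925 over 62 arrays, those of Idh3g at 0.590, of Pfkm at 0.501, of Dlat at 0.347 and of Mdh2 at 0.334. For the 3 pairs of Dlst features r was 0.145, -0.02 and -0.06. The Tkt features lie 44 and 88 feature numbers apart at 1 position, and the features between them, numbers 10289 and 10333, correlated with them at 0.763 to 0.794 and at 0.487 to 0.564.

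Members therefore also followed their neighbours, as features of the filter did in general. Across all features the median r with the features 22 and 44 numbers away was 0.507, and for the 34 members it was 0.582. Cpt2 correlated most with the feature 22 numbers on (14944, r = 0.881), and Pdhb at 0.855 with 14151. Low values among the neighbours were found for Dlst 13730 (0.091), Pcx (0.111), Dlat 14192 (0.116) and Acox3 (0.124). These correlations share arrays, position and hybridisation and are a description.

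**Figure D5:**
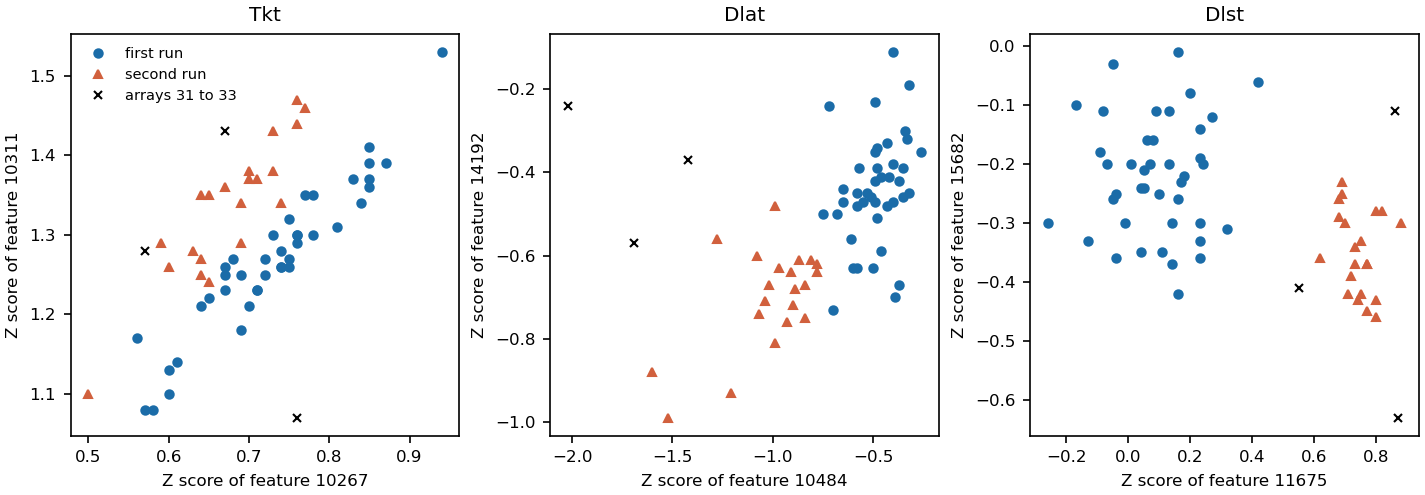
Z scores of 2 features of the same gene set against each other for Tkt (10267 and 10311), Dlat (10484 and 14192) and Dlst (11675 and 15682), 1 point per mouse, with circles for the first run, triangles for the second run and crosses for arrays 31 to 33. The Tkt features lie along a line within each run (residual r = 0.925), and the Dlst features form separate clouds by run with no slope inside them (residual r = -0.02).

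Other genes of these pathways were read from a list of glucose transporters, remaining glycolytic, pentose phosphate and TCA enzymes, pyruvate carrier and kinases, thioesterases, ketone body enzymes and regulators. Of that list 35 genes had 40 named features, and 0 passed in any of the 14 comparisons, before or after run adjustment. Between 6 and 24 months on AL 5 of the 40 had an unadjusted p under 0.05, where 12.8% of all features did, and after run adjustment 2 had (3.88% of all features). The smallest belonged to Oxct1 9539, a ketone body enzyme (0.24, or 0.06 run-adjusted), Acot7 9514, an acyl-CoA thioesterase (0.15, or 0.06) and Hsd17b10 14287, a hydroxyacyl-CoA dehydrogenase (0.24, or 0.05). On CR over the same span they were Fabp5 11504, a fatty acid binding protein (0.13, or 0.09), Pdk3 16273, a kinase that inhibits pyruvate dehydrogenase (0.15, or 0.13), and Me1 13985, malic enzyme (0.11, or 0.15). At 24 months the diets differed most for Bpgm 11542 (0.18), Me1 (0.10) and Pdk3 (0.10), and over the adult ages for Prkaa1 10839, the catalytic alpha 1 subunit of AMP-activated kinase (0.07), Ugp2 8572 (0.07) and Fabp5 (-0.06). The median of the 40 features was 0.03 for the AL span from 6 to 24 months and -0.0010 after run adjustment.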

How the data were processed

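Total RNA was labelled with a radioactive nucleotide by reverse transcription and hybridised to the filters, and the deposited values are a score: the authors scaled the log-transformed intensities of each array to a Z score. The log base, background treatment and filter layout are not given in the sources used here, so differences are printed in Z units and not as folds. The table holds 8448 features and 65 arrays, each a separate mouse, with no columns outside the labels (0). A score has no depth, and precision is limited by the number of arrays. Names came from the platform annotation (1 symbol: 4875, several: 224, none: 3349), and all 34 member symbols were the same in RefSeq. Features that carry several symbols were no members.

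Tests were made in limma 3.58.1 (R 4.3.3) with 14 means (stage, diet and sex) in 1 fit of all arrays, both sexes weighted equally, and Benjamini-Hochberg adjustment over all 8448 features. The 2 runs were split on the first principal component of these arrays. Members, gene lists and this split were chosen with earlier results of these data known. The text names every member, gives for each comparison the passing members and the 5 with the smallest unadjusted p, and gives sample values for members that passed and the 3 others with the smallest p over age and diet. The script was tested on simulated data. Alternatives were run adjustment, leaving out arrays or single mice, position centring and array weights (gene by gene, since the default did not converge). Further ones were quantile normalization, a mean Z above 0, sex left out, rounds of array numbers as a block, and the methods' selection. The last was run without its final two-way ANOVA. Position centring together with run adjustment was added after seeing the data.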

Additional observations from a re-analysis of the deposited data

Results flagged for a closer look

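The 28 groups examined were the members shown by sample, each in the 7 groups of stage and diet. In 3 of them 1 mouse lay far from the rest of its group. The rule would set apart about 1 in 20 independent groups. These members were picked by their p values and share arrays, so the count cannot be set against that rate. Hadha was at -1.95 on array 33, a 6-month AL male, with the next mouse at -0.67. On the same array Acox3 was at 0.63, with the next mouse at -0.21. Pcx was at 0.37 in a 24-month CR male (array 11), with the next mouse at 0.04. Without array 33, the Hadha difference between 6 and 24 months on AL was 0.30, and that of Acox3 between juvenile and 6-month mice was -0.0035. No difference of age steps between diets or sexes passed for a member.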

How the results depend on the processing

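No paired analysis was possible because the labels give the mice no replicate numbers. Array numbers fall into rounds, which pair no mice and were fitted as a block. The count of members called stayed at 0 under all settings run in 11 of the 14 comparisons. From 6 to 16 months on AL it was 0 and became 1 (Hadha) run-adjusted, with position centring added to that, without arrays 31 to 33, with array weights, with sex left out and with the rounds as a block; leaving out 1 mouse gave 0 to 1. From 6 to 24 months on AL it was 1 and became 0 with position centring, with quantile normalization, with features of mean Z above 0 (where Hadha is not tested), without array 27 and by the methods' test after adjustment, 2 with the rounds as a block (Dlat 14192 lower) and 5 with array weights (both Dlat features and Pfkm 14252 lower, Dlst 11675 and Hadha higher, among 1451 features or 17.2%); leaving out 1 mouse gave 0 to 2. From 6 to 24 months on CR it was 0 and became 1 (Hadha) run-adjusted, with position centring added, without arrays 31 to 33 and with array weights; leaving out 1 mouse gave 0. The causes were not tested. Hadha kept its sign from 6 to 24 months on AL in 20 of 20 fits without 1 mouse, at 0.30 to 0.52, and passed in 8 of them (adjusted p from 0.000839 to 0.153). The call was lost without 24-month males 1 to 5, 24-month females 2 to 5 or 6-month females 1, 2 or 4, at 0.44 to 0.48 (adjusted p from 0.0608 to 0.153). From 6 to 16 months on AL it was gained without 6-month males 2, 3, 4 or 5 or 16-month male 2, at 0.29 to 0.51 (adjusted p from 0.00379 to 0.0468). Dlat 14192 passed without 6-month female 3 (-0.34, adjusted p = 0.00800). None of the differences that changed sign had passed. Acox3 from juvenile to 6 months was -0.0222 run-adjusted, -0.00837 with position centring added and -0.0035 without arrays 31 to 33 (-0.0035 to 0.120 without 1 mouse). Hadh between diets at 6 months was 0.0135 run-adjusted and 0.0302 with position centring added. The sex difference of the 6 to 24 month step was -0.0143, -0.0283 and -0.02 for Cpt2 under those settings in that order (-0.02 to 0.372 without 1 mouse), and for Pfkp it was 0.01 without arrays 31 to 33 and 0.0351 with array weights (-0.28 to 0.01 without 1 mouse). The methods' selection, run without its final two-way ANOVA, took 1 member, Dlst 11675 from 6 to 24 months on AL (higher, among 1.89% of all features). It took 0 in the other comparisons it was run for.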
